A study of Mus musculus with 15 samples.

Results

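Wnt ligands, their Frizzled receptors and the secreted proteins that modulate them were followed as a set of 48 protein-coding mouse genes among the 49585 genes of the count table. Members were taken by symbol: every protein-coding gene named Wnt, Fzd, Sfrp, Dkk or Rspo with a number, together with Lef1, Tcf7, Axin2, Nkd1, Apcdd1, Lrp5 and Lrp6. The set was chosen with earlier results of these data known, so shares of members called are not blind to the data. The set held 19 Wnt ligands, 10 Frizzleds, 2 co-receptors, 4 R-spondins, 4 secreted Frizzled-related proteins, 4 Dickkopf antagonists and 5 nuclear or feedback genes. RNA came from 15 libraries in 5 groups of 3, all of strain C57BL/6. The first group was 005, a line of mouse glioma stem cells that carries GFP and was kept in stem cell medium without serum. Tumor-derived endothelial cells (TDECs) were grown from 005 in EGM-2 endothelial medium at 1% oxygen and were sampled on day 2 (TDEC day 2) and as untreated TDECs, which carry no day in their labels and were taken as the day 5 cells of the study. A further group of day 5 TDECs was collected 24 h after 5 μM sertraline, an antidepressant that blocks serotonin uptake, was added. Purchased mouse brain microvascular endothelial cells (MBMECs) were grown in another medium with serum, and no oxygen level is given for them or for 005. All 005 and TDEC libraries stem from 1 cell line, so their spread says nothing about other tumors.

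Wnt proteins are secreted lipid-modified ligands that bind Frizzled receptors on the cell surface. With the co-receptors Lrp5 and Lrp6 they keep beta-catenin from being degraded, and beta-catenin then acts with Tcf and Lef proteins on target genes, some of which, such as Axin2, Nkd1 and Apcdd1, restrain the pathway in turn. Other Wnts, such as Wnt5a, are best known for signalling without beta-catenin. In the developing brain, Wnt7a and Wnt7b made by neural cells act on Frizzleds of endothelial cells and induce the blood-brain barrier.

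The libraries held 11283680 to 17093061 counts, of which the 48 members took 0.102% to 0.197%. Within groups, replicate 3 of 005 and replicate 3 of TDEC day 2 stood apart from the other libraries, at 11.1 to 11.7 chi-square units per gene, where the remaining pairs gave 2.15 and 2.5 and pure counting error would give about 1. Replicate 2 of the sertraline group stood apart by less, at 6.97 and 7.27. At the level of RNA, the label of an endothelial cell was not borne out by its defining markers in TDECs. The study identified TDECs by staining for the proteins CD31 and CD34. It also reported tube formation and an enrichment of blood vessel genes among those higher in TDECs than in 005. Protein was not measured in these libraries. The 10 endothelial markers summed to 7.35 to 8.66 CPM, a count scaled by its library total, in TDEC libraries and to 7129 to 7281 CPM in MBMEC libraries, and Cldn5 and Tie1 had no counts in TDECs. The same 10 markers summed to 5.70 to 8.81 CPM in 005 and 6.60 to 15.4 CPM on day 2. From 005 to TDECs the mean of Kdr rose from 1.20 to 4.04 CPM. Those of Pecam1 and Vwf fell, from 1.38 to 0.739 CPM and from 2.39 to 1.23 CPM. The 6 markers of neural and glioma stem cells summed to 2253 to 2534 CPM in 005, 1452 to 1502 CPM in TDECs and 250.2 to 252.6 CPM in MBMECs, where Sox2, Olig2, Fabp7 and Sox9 had no counts. From 005 to TDECs the sum of the 5 neuronal markers went from 562.7 to 699.1 CPM down to 332.1 to 337.4 CPM. That of the 5 astrocyte markers went from 507.1 to 517.7 CPM up to 746.6 to 808.5 CPM. Most of the neuronal sum was Map2, with means of 588.2 CPM in 005 and 293.8 CPM in TDECs. Most of the astrocyte sum was Slc1a3, with means of 498.8 CPM in 005 and 725.5 CPM in TDECs. Against the direction of their sums, the means of the neuronal Snap25 and the stem cell marker Prom1 rose, and that of the astrocyte S100b fell. The part of these shifts in the results that follow was not tested. RNA from whole cultures cannot tell apart fewer cells of a kind and less RNA per cell.

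Of the 48 members, 29 reached a mean of 1 CPM in some group and had enough counts to be tested in at least 1 comparison, and 27 were tested in each single comparison. Tests were fitted across all genes with edgeR's quasi-likelihood method, and a call needed both a Benjamini-Hochberg adjusted p under 0.05 and a log2 fold change beyond 1 in either direction. At least 1 call over all comparisons was made for 25 members. The matching share of all genes was not counted, so this number is not read as a trait of the members. Against MBMECs alone, 28.1% of all tested genes were called higher in TDECs and 20.8% lower. Since the tested members passed a filter on low counts, the counts of calls describe the measured members and not the family. CPM values below are scaled over all 15 libraries, and values of replicates 1, 2 and 3 are given in that order.

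The first step of differentiation, from 005 to TDEC day 2, asked what changed early in endothelial medium and low oxygen. Here 4 of 27 tested members were higher (14.8%, against 5.35% of all tested genes): Wnt9b, Wnt5b, Fzd6 and Dkk3. Another 5 were lower (18.5%, against 4.48%): Wnt7a, Wnt7b, Fzd9, Lef1 and Nkd1. The median log2 fold change was 0.15 over the members and −0.02 over all tested genes. Over the whole course, from 005 to TDECs, 7 members were higher (25.9%, against 13.1%), namely Wnt5a, Wnt5b, Wnt9a, Fzd4, Fzd5, Fzd6 and Dkk3. In that course 6 were lower (22.2%, against 10.4%), namely Wnt7a, Fzd2, Fzd9, Sfrp1, Sfrp2 and Lef1, with a median of 0.14 over the members and −0.01 over all genes. From TDEC day 2 to TDECs, 2 members rose (7.41%, against 11.1%), Wnt9a and Nkd1, and 3 fell (11.1%, against 9.35%), Wnt9b, Fzd3 and Sfrp2, shares near those of all tested genes. The 3 comparisons share libraries and are not independent of each other. TDECs of either day differ from 005 in medium, and no oxygen level is given for 005. Medium and oxygen therefore cannot be told apart in the comparisons with 005.

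Against MBMECs, the comparison of tumor-derived with brain endothelial cells, 17 of 27 tested members were higher in TDECs (63.0%, against 28.1% of all tested genes) and 5 were lower (18.5%, against 20.8%). The median log2 fold change was 1.87 over the members, also with the 9 genes without counts in MBMECs set at their bounds, and 0.09 over all genes. With sertraline 1 member, Wnt9a, was higher (3.70%, against 1.82%), and 3, Dkk3, Fzd10 and Sfrp1, were lower (11.1%, against 3.26%), with a median of 0.16 over the members.

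**Figure D1:**
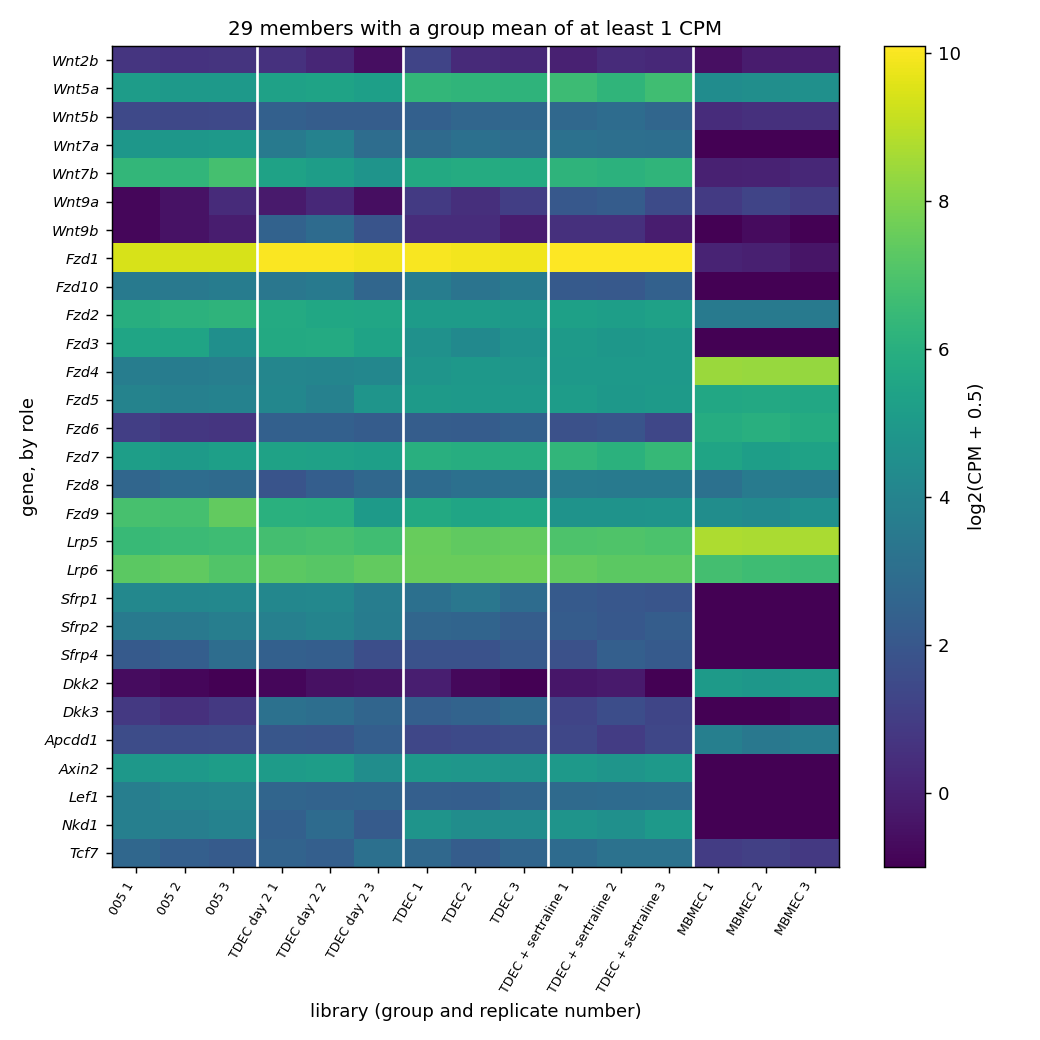
Level of the 29 members that reached a group mean of 1 CPM, as log2(CPM + 0.5) by color, in each of the 15 libraries (columns, grouped by white lines), with genes ordered by role. Fzd1 is the brightest row in all 005 and TDEC libraries and is near 0 CPM in MBMECs, where Fzd4, Fzd6, Lrp5, Dkk2 and Apcdd1 are brighter than in any other group.

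Among the ligands, Wnt7a and Wnt7b, which drive vessel growth and barrier formation in the developing brain, were both called lower on day 2, but over the whole course the call held for Wnt7a and not for Wnt7b. Wnt7a stood at 28.7, 28.6 and 31.9 CPM in 005, 11.3, 14.4 and 7.23 CPM on day 2, 6.56, 8.10 and 7.28 CPM in TDECs and 8.18, 7.89 and 7.64 CPM with sertraline. Every 005 library lay above every TDEC library of any kind. The fall was already called on day 2 (log2 fold change −1.45, SE 0.20, adjusted p = 0.00019) and was larger over the whole course (−2.04, SE 0.12, adjusted p = 1.7e-08). Wnt7a had no counts in MBMECs, so that TDECs were at least 111-fold higher when the empty group is set at a floor of 3 counts. Floors of this kind cover counting error only.

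Wnt7b did not follow the same course. Its level was 80.2, 79.5 and 113 CPM in 005, 42.1, 35.3 and 26.6 CPM on day 2, 53.5, 56.5 and 54.7 CPM in TDECs and 74.5, 70.3 and 77.1 CPM with sertraline. The day 2 libraries were the lowest of the glioma-derived cells, and the groups did not overlap at either step. It fell on day 2 (log2 fold change −1.41, SE 0.17, adjusted p = 9.9e-05), and its later rise to TDECs (0.65, SE 0.13, adjusted p = 0.0013), its remaining difference from 005 in TDECs (−0.75, SE 0.12, adjusted p = 0.00019) and its rise with sertraline (0.42, SE 0.06, adjusted p = 8e-05) stayed under the fold threshold. In MBMECs it was 0.504, 0.535 and 0.689 CPM (6.56, SE 0.14, adjusted p = 1.1e-25). Reads of AU022754, a non-coding gene on the opposite strand that overlaps Wnt7b, may be counted for either gene if strand was not used.

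Wnt5a and Wnt5b, which signal mostly without beta-catenin, were higher in TDECs. Wnt5a rose from 34.7, 30.3 and 30.7 CPM in 005 to 40.7, 42.4 and 38.0 CPM on day 2 and 80.0, 76.4 and 74.5 CPM in TDECs (log2 fold change 1.26, SE 0.08, adjusted p = 2.8e-08 against 005). It stood at 96.8, 75.7 and 104 CPM with sertraline and 20.6, 21.9 and 23.4 CPM in MBMECs (1.81, SE 0.07, adjusted p = 1.9e-19 for TDECs against MBMECs). The 005, day 2 and TDEC groups did not overlap, and each sertraline library was above the day 2 group. Wnt5b was a low gene, at 2.24, 2.13 and 2.22 CPM in 005, 4.78, 4.38 and 4.32 CPM on day 2, 4.83, 5.76 and 6.04 CPM in TDECs, 6.23, 7.09 and 5.89 CPM with sertraline and 0.818, 0.937 and 0.965 CPM in MBMECs. Both steps away from 005 were called (1.01, SE 0.22, adjusted p = 0.0041 on day 2; 1.32, SE 0.20, adjusted p = 9.7e-05 in TDECs). The day 2 call lay at the fold threshold and ended with plain library totals (0.95) or without replicate 2 of 005 (0.997) or replicate 1 of TDEC day 2 (0.97). The protein-coding gene Fbxl14 lies on the opposite strand of Wnt5b and held 1953 to 3526 counts per group, so that Wnt5b values are uncertain if strand was not used.

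Wnt9b and Wnt9a were near the floor in 005. Wnt9b, a ligand of the beta-catenin branch in kidney and craniofacial development, was a gene of day 2: it stood at 0.0722, 0.220 and 0.430 CPM in 005, 5.09, 6.82 and 3.16 CPM on day 2, 0.820, 0.836 and 0.414 CPM in TDECs, 0.941, 0.941 and 0.436 CPM with sertraline and 0, 0.134 and 0 CPM in MBMECs. Every day 2 library was above every library of the other groups. The rise from 005 (log2 fold change 4.32, SE 0.49, adjusted p = 5.1e-05) and the fall to TDECs (−2.87, SE 0.39, adjusted p = 6.4e-05) were both called. Wnt9a stood at 0.0722, 0.220 and 0.788 CPM in 005, 0.38, 0.718 and 0.166 CPM on day 2, 1.37, 0.919 and 1.57 CPM in TDECs, 3.62, 4.13 and 2.40 CPM with sertraline and 1.32, 1.94 and 1.38 CPM in MBMECs. It was the only member called higher with sertraline (1.38, SE 0.30, adjusted p = 0.0018), and the treated libraries lay above all others. The calls of Wnt9a against 005 (1.78, SE 0.57, adjusted p = 0.015) and against day 2 (1.54, SE 0.50, adjusted p = 0.018) ended when single libraries were left out. Without 1 of replicates 1 and 2 of 005 or replicate 3 of TDEC, the adjusted p against 005 was 0.052, 0.051 and 0.064. Without 1 of replicate 1 of day 2 or replicates 1 and 3 of TDEC, the adjusted p against day 2 was 0.056, 0.059 and 0.083.

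The other 13 ligands were at or near the floor. Wnt2b had group means of 0.335 to 1.11 CPM and no call. Wnt3a had no counts in any library. Wnt1, Wnt2, Wnt3, Wnt4, Wnt6, Wnt8a, Wnt8b, Wnt10a, Wnt10b, Wnt11 and Wnt16 were tested in no comparison, and their highest group means ran from 0.0479 CPM for Wnt1 to 0.701 CPM for Wnt3. Per kilobase of exon, the ligand with the highest mean level in 005 was Wnt7b at 18.6 CPM per kb, followed by Wnt7a at 9.38 and Wnt5a at 4.07. In TDECs Wnt7b (11.2 CPM per kb) and Wnt5a (9.84) led and Wnt7a was at 2.31, while in MBMECs Wnt5a led at 2.81 CPM per kb.

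**Figure D2:**
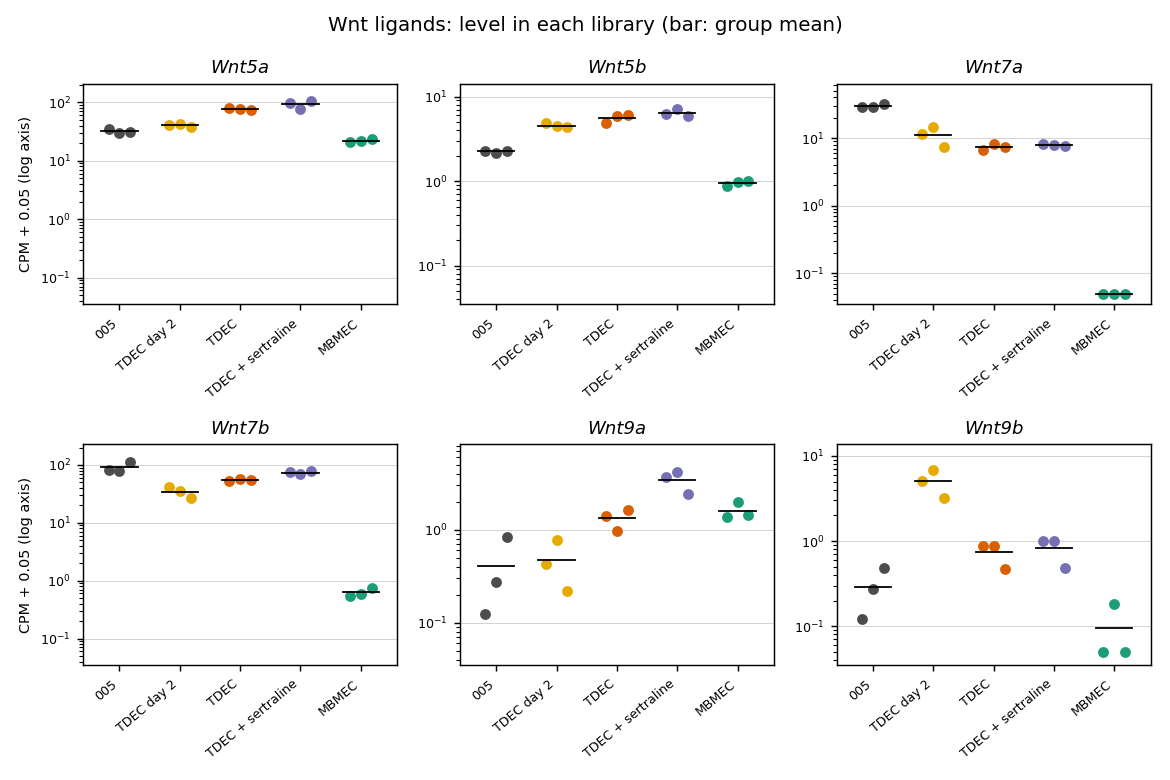
Level of 6 Wnt ligands as CPM + 0.05 on a log axis in each library (points) by group, with the group mean as a bar. Wnt7a steps down from 005 to day 2 and TDECs and is at 0 in MBMECs, Wnt7b dips on day 2, and Wnt9b is above its other groups on day 2.

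Promoter sequence is shown for Wnt7a, the ligand with the largest called fall from 005 to TDECs, and for the one called member whose promoter held a match to CTTTGAT, a motif of the kind bound by Tcf and Lef proteins. RefSeq promoter windows of GRCm38.p6, from 250 bases before to 50 bases after a start, were given for 31 of the 48 members. The motif, searched on both strands, was found in 2 of these 31 members (6.45%), Wnt11 and Wnt5b, against 4.29% of 27025 genes. A gene can have several windows: the motif was in 1 of 2 windows of Wnt11 and 1 of 3 of Wnt5b, or 5.26% of 38 member windows against 3.73% of all windows, and the Wnt5b window printed here is the 1 with the motif. A match is a description of the letters and not of binding. The 250 bases before the start are printed 5′ to 3′ on the gene's strand, with the motif in capitals: for Wnt7a chr6:91411354-91411603 on the minus strand, which holds 34 CpG dinucleotides and no motif, and for Wnt5b chr6:119449387-119449636 on the minus strand, a start inside the gene, which holds 7 CpG and the motif from base 180.
Wnt7a: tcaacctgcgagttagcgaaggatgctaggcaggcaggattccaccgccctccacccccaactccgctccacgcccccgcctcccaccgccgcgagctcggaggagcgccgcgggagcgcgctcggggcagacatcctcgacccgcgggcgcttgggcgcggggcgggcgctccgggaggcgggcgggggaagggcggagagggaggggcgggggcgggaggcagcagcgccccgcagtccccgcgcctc
Wnt5b: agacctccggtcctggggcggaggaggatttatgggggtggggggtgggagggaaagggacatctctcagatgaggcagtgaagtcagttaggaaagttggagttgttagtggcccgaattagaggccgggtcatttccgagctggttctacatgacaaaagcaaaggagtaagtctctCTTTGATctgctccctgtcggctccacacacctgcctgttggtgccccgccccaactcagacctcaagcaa

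Among the Frizzleds, 1 receptor carried most of the reads in the glioma-derived cells and another in MBMECs. Fzd1 stood at 697, 695 and 697 CPM in 005, 1043, 1051 and 963 CPM on day 2, 1012, 955 and 931 CPM in TDECs and 1091, 1095 and 1064 CPM with sertraline, against 0.566, 0.468 and 0.276 CPM in MBMECs. The difference from MBMECs was a log2 fold change of 11.07 (SE 0.10, adjusted p = 2.1e-34). Its rise over 005 was under the fold threshold (0.53, SE 0.07, adjusted p = 0.0001 on day 2; 0.46, SE 0.05, adjusted p = 7.2e-06 in TDECs), though the groups did not overlap. Per kilobase Fzd1 was at 166 CPM per kb in 005 and 230.2 in TDECs, where the next Frizzled, Fzd9, was at 58.3 and 21.2.

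Fzd4, the receptor of norrin on brain and retinal endothelium, showed the opposite order. Fzd4 was at 12.5, 12.0 and 13.1 CPM in 005, 16.5, 16.0 and 17.1 CPM on day 2, 27.2, 29.9 and 27.6 CPM in TDECs and 30.9, 30.7 and 31.9 CPM with sertraline. It rose over the whole course (log2 fold change 1.16, SE 0.10, adjusted p = 7e-07), with no overlap between 005, day 2 and TDECs. MBMECs held 348, 335 and 323 CPM, so that TDECs remained far below them (−3.57, SE 0.06, adjusted p = 1.3e-28), and in MBMECs Fzd4 had the highest level per kilobase among the Frizzleds, 49.9 CPM per kb. Fzd6, a receptor of planar polarity in skin, was low but moved the same way, from 1.59, 1.25 and 1.15 CPM in 005 to 4.86, 4.74 and 4.15 CPM on day 2 and 4.37, 4.18 and 4.80 CPM in TDECs, with 2.82, 3.19 and 2.04 CPM after sertraline and 57.8, 64.4 and 56.9 CPM in MBMECs. It was called on day 2 (1.76, SE 0.26, adjusted p = 0.00031), in TDECs (1.72, SE 0.23, adjusted p = 3.8e-05) and, downward, against MBMECs (−3.74, SE 0.10, adjusted p = 4.1e-23), and its difference with sertraline stayed under the fold threshold (−0.74, SE 0.22, adjusted p = 0.016).

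Fzd5, a receptor that also takes part in vessel formation in the yolk sac and placenta, was at 15.1, 13.7 and 14.5 CPM in 005, 16.9, 14.4 and 27.5 CPM on day 2, 32.5, 31.9 and 30.9 CPM in TDECs, 34.6, 29.8 and 32.4 CPM with sertraline and 49.9, 51.0 and 50.1 CPM in MBMECs. On day 2 replicates 1 and 3 lay above the 005 range and replicate 2 within it, and the highest, replicate 3, is the library that also stood apart over all genes. Fzd5 rose over the whole course (log2 fold change 1.12, SE 0.09, adjusted p = 4.3e-07), a call that ended with plain library totals (0.99), which moved the median of all genes in that comparison by −0.13. Gm38058, a predicted gene on the opposite strand, overlaps it.

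Of the other called Frizzleds, Fzd9, Fzd2 and Fzd3 were called lower at some step of differentiation. Fzd9, a receptor of the developing hippocampus, was at 115, 114 and 173 CPM in 005, 65.8, 64.5 and 32.7 CPM on day 2, 52.9, 45.2 and 47.7 CPM in TDECs, 25.8, 25.6 and 26.2 CPM with sertraline and 21.0, 19.5 and 23.6 CPM in MBMECs. Replicate 3 was the highest library in 005 and the lowest on day 2. The falls on day 2 (log2 fold change −1.31, SE 0.23, adjusted p = 0.0012) and over the whole course (−1.48, SE 0.15, adjusted p = 2.4e-06) were called, but the day 2 value was −0.81 without replicate 3 of both groups. With sertraline Fzd9 was lower by less than the fold threshold (−0.92, SE 0.08, adjusted p = 3.8e-07), and TDECs were above MBMECs (1.19, SE 0.08, adjusted p = 1.7e-13).

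Fzd2, which acts in both branches of the pathway, fell stepwise, from 61.2, 70.4 and 74.1 CPM in 005 to 54.2, 49.0 and 46.8 CPM on day 2 and 33.3, 33.3 and 31.4 CPM in TDECs (log2 fold change −1.08, SE 0.09, adjusted p = 3.5e-07). It stood at 39.6, 36.8 and 40.2 CPM with sertraline and at 11, 11.2 and 11.5 CPM in MBMECs (1.55, SE 0.09, adjusted p = 4.2e-15 for TDECs against MBMECs), and no group of 005, day 2 and TDECs overlapped another. Fzd3, an axon guidance receptor, was at 45.1, 44.1 and 22.9 CPM in 005, 53.6, 55.1 and 42.4 CPM on day 2, 24.2, 18.8 and 24.6 CPM in TDECs, 32.8, 29.2 and 31.0 CPM with sertraline and no counts in MBMECs (TDECs at least 340.0-fold higher). It was called lower in TDECs than on day 2 (−1.18, SE 0.13, adjusted p = 1.2e-05). Against 005 it overlapped through replicate 3 of 005 (−0.74, SE 0.21, adjusted p = 0.0082), and without that library it was −1.01 and past both thresholds.

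Fzd10 was called at no step of differentiation and was lower with sertraline. It stood at 10.9, 10.8 and 12.0 CPM in 005, 10.1, 11.6 and 5.90 CPM on day 2 and 12.7, 9.02 and 10.9 CPM in TDECs, against 3.98, 3.84 and 4.87 CPM with sertraline (log2 fold change −1.37, SE 0.17, adjusted p = 1.5e-05). The treated libraries lay below every other library of the glioma-derived cells, and MBMECs had no counts (TDECs at least 164-fold higher). Fzd7 and Fzd8 were called in no comparison. Fzd7 had means of 35.6 ± 2.42 CPM in 005, 61.0 ± 2.60 CPM in TDECs, 77.5 ± 8.41 CPM with sertraline and 40.9 ± 3.95 CPM in MBMECs (SD, n = 3). Fzd8 had means of 4.56 to 11.4 CPM over the groups.

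**Figure D3:**
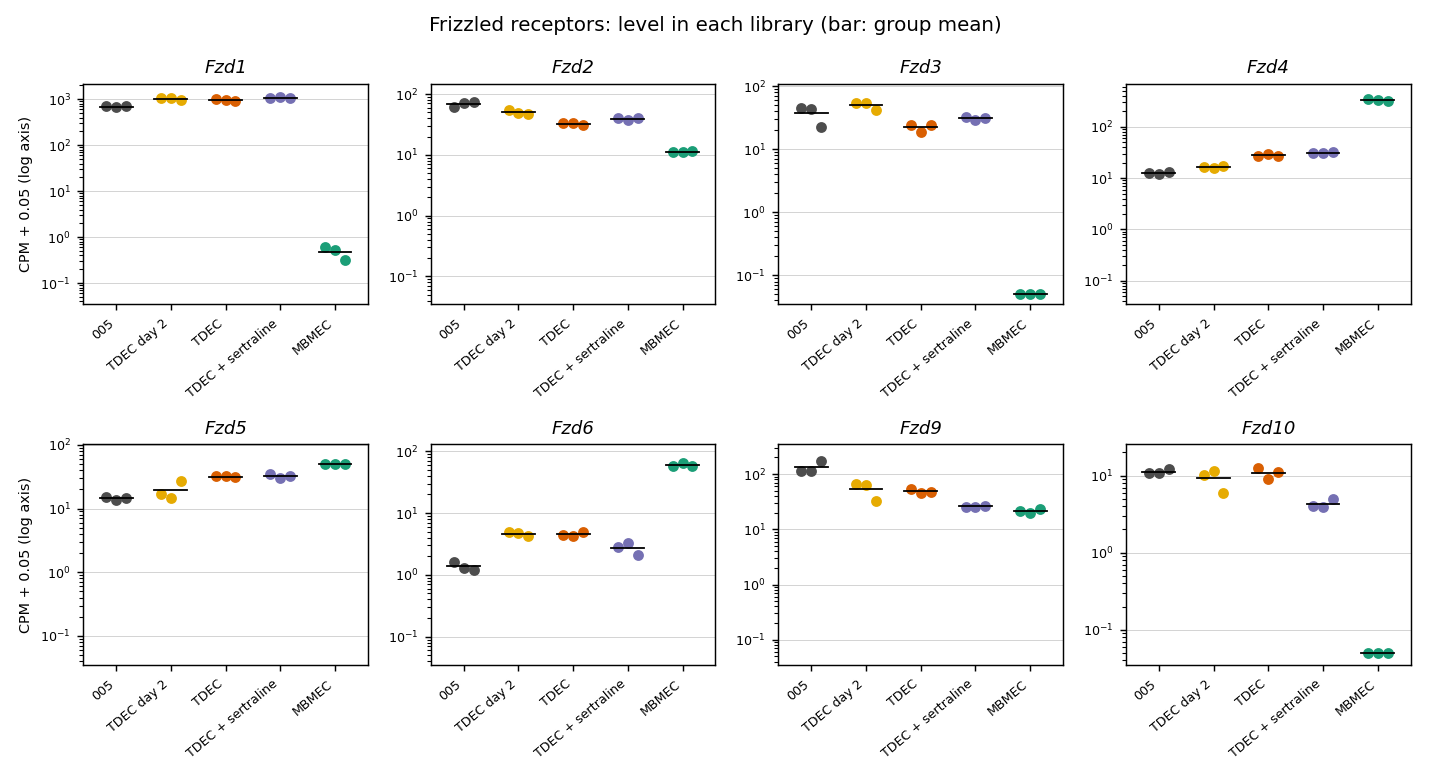
Level of the 8 called Frizzled receptors as CPM + 0.05 on a log axis in each library (points) by group, with the group mean as a bar. Fzd1 is near 1000 CPM in TDECs and under 1 CPM in MBMECs, Fzd4 and Fzd6 are highest in MBMECs, and Fzd3 and Fzd10 are at 0 there.

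The co-receptors were present everywhere. Lrp5 was at 88.2, 93.3 and 100.2 CPM in 005, 108, 116 and 104 CPM on day 2, 183, 169 and 174 CPM in TDECs, 126, 130.4 and 125 CPM with sertraline and 427, 413 and 417 CPM in MBMECs. TDECs lay between 005 and MBMECs with no overlap, and the call was made only against MBMECs (log2 fold change −1.26, SE 0.05, adjusted p = 3.9e-20), the difference from 005 being 0.89, SE 0.07, adjusted p = 2.3e-07. Lrp6 was called in no comparison, with group means of 101 to 189.9 CPM, TDECs being above MBMECs by 0.92 (SE 0.05, adjusted p = 2.6e-15).

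R-spondins, which amplify Wnt signals by keeping Frizzleds on the cell surface, were at the floor: Rspo1, Rspo2, Rspo3 and Rspo4 were tested in no comparison, and the highest group mean was 0.465 CPM, for Rspo2 in TDECs. The secreted Frizzled-related proteins bind Wnts outside the cell and are known mostly as antagonists. Of their genes, 2 of 3 tested were lower over the whole course, where 10.4% of all tested genes were lower. Sfrp1 was at 17.8, 17.3 and 17.6 CPM in 005, 16.9, 17.8 and 12.4 CPM on day 2, 7.93, 10.1 and 7.03 CPM in TDECs and 3.91, 3.55 and 3.35 CPM with sertraline. The fall over the whole course was called (log2 fold change −1.09, SE 0.14, adjusted p = 2.5e-05) and was −0.98 without replicate 3 of TDEC, and the difference with sertraline was called as well (−1.22, SE 0.18, adjusted p = 8.2e-05). The sertraline libraries were below every untreated library of the glioma-derived cells.

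Sfrp2 was not called on day 2 and was lower in TDECs, at 11.4, 10.6 and 12.9 CPM in 005, 14.0, 15.4 and 12.3 CPM on day 2, 5.83, 5.43 and 4.39 CPM in TDECs and 4.20, 3.62 and 4.29 CPM with sertraline. Its fall was called against 005 (log2 fold change −1.18, SE 0.16, adjusted p = 3.6e-05) and against day 2 (−1.43, SE 0.16, adjusted p = 1.8e-05), and sertraline made no call (−0.37, SE 0.19, adjusted p = 0.13). The antisense gene Gm26771 overlaps Sfrp2. Sfrp4 was at 3.97, 4.55 and 7.24 CPM in 005, 4.86, 4.52 and 2.66 CPM on day 2, 3.01, 3.01 and 3.72 CPM in TDECs and 2.82, 4.71 and 3.93 CPM with sertraline, and was called only against MBMECs. None of Sfrp1, Sfrp2 and Sfrp4 had counts in MBMECs, which put TDECs at least 126-fold, 78.5-fold and 49.2-fold higher. Sfrp5 was tested in no comparison and had a highest group mean of 0.215 CPM in 005.

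Of the Dickkopf proteins, Dkk1, Dkk2 and Dkk4 block Lrp5 and Lrp6, whereas Dkk3 is a divergent member of the family. Dkk3 was at 1.30, 0.955 and 1.29 CPM in 005, 8.27, 7.61 and 5.65 CPM on day 2, 4.56, 5.35 and 6.46 CPM in TDECs and 1.96, 2.61 and 1.96 CPM with sertraline. It rose on day 2 (log2 fold change 2.58, SE 0.26, adjusted p = 2.3e-05) and stood above 005 in TDECs (2.18, SE 0.25, adjusted p = 7.8e-06). With sertraline it was lower than in TDECs (−1.33, SE 0.22, adjusted p = 0.00024), and each treated library lay between the ranges of 005 and of TDECs. MBMECs held 1 count of Dkk3 against 192 in TDECs, a ratio of 249 (counting interval 44.1 to 9867). Dkk2 belonged to MBMECs, with 32.7, 28.6 and 32.9 CPM there and 0.456, 0.0836 and 0 CPM in TDECs (log2 fold change −7.44, SE 0.26, adjusted p = 7.3e-21). In 005 it was at 0.144, 0.0734 and 0 CPM, on day 2 at 0.0759, 0.215 and 0.249 CPM and with sertraline at 0.290, 0.362 and 0 CPM. Dkk1 and Dkk4 were tested in no comparison, with highest group means of 0.221 and 0.0554 CPM.

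The nuclear and feedback genes did not move together. Lef1, a transcription factor that beta-catenin binds and that is itself a common target, was at 12.9, 15.3 and 16.8 CPM in 005, 5.62, 5.31 and 5.40 CPM on day 2, 4.65, 4.43 and 5.63 CPM in TDECs and 6.66, 6.95 and 7.06 CPM with sertraline. It fell on day 2 (log2 fold change −1.48, SE 0.16, adjusted p = 3.5e-05) and was lower than 005 in TDECs as well (−1.63, SE 0.16, adjusted p = 2.1e-06), and with sertraline it was higher by less than the fold threshold (0.48, SE 0.16, adjusted p = 0.03). Nkd1, an antagonist of Dishevelled, dipped and then rose: it stood at 13.3, 13.1 and 14.8 CPM in 005, 4.86, 6.82 and 3.99 CPM on day 2, 26.5, 20.9 and 20.9 CPM in TDECs and 26.4, 23.2 and 30.5 CPM with sertraline. The 005, day 2 and TDEC groups did not overlap, with the fall on day 2 (−1.40, SE 0.20, adjusted p = 0.00023) and the later rise (2.1, SE 0.19, adjusted p = 2.6e-06) both called and the level in TDECs above 005 by less than the fold threshold (0.71, SE 0.12, adjusted p = 0.0003).

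Axin2, a scaffold of the beta-catenin destruction complex and the most widely used target of the pathway, was at 29.9, 31.7 and 36.0 CPM in 005, 33.4, 35.5 and 21.2 CPM on day 2, 29.3, 28.0 and 25.9 CPM in TDECs and 31.9, 27.1 and 30.8 CPM with sertraline. It was not called at any step of differentiation (log2 fold change −0.13, SE 0.17, adjusted p = 0.57 on day 2; −0.25, SE 0.10, adjusted p = 0.041 in TDECs) or with sertraline (0.10, SE 0.09, adjusted p = 0.41). Only replicate 3 of day 2 lay below the range of the other glioma-derived libraries. In MBMECs Axin2, Nkd1 and Lef1 had no counts at 15617686 to 17093061 counts per library, and TDECs were at least 419-fold, 342-fold and 74.2-fold higher. The antisense genes Gm11670 and Gm43352 overlap Axin2 and Lef1 and had no counts in MBMECs either. The 250 bases before the Axin2 start, chr11:108920099-108920348 on the plus strand of GRCm38.p6, are printed since this gene was well covered in the glioma-derived cells and had no counts in MBMECs. The stretch holds 24 CpG dinucleotides and no CTTTGAT on either strand, so it has no capitals.
Axin2: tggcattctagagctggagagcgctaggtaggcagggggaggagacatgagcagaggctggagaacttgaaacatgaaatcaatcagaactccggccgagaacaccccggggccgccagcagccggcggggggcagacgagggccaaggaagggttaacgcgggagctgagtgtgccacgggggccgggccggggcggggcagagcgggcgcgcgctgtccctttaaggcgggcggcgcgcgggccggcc

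Tcf7, the T cell factor of the same family as Lef1, was at 5.99, 4.63 and 4.01 CPM in 005, 5.24, 4.59 and 8.06 CPM on day 2, 6.29, 4.34 and 5.71 CPM in TDECs, 6.88, 8.47 and 8.51 CPM with sertraline and 1.45, 1.67 and 1.31 CPM in MBMECs, and was called only against MBMECs (log2 fold change 1.87, SE 0.24, adjusted p = 3.4e-08). Apcdd1, a membrane inhibitor of Wnt receptors known as a target in brain and retinal vessels, was the exception among the feedback genes, with 13.2, 10.5 and 12.3 CPM in MBMECs and 2.1, 2.34 and 2.48 CPM in TDECs (−2.37, SE 0.18, adjusted p = 5.2e-13). In the other groups it was at 2.53, 2.42 and 2.51 CPM in 005, 3.42, 3.30 and 4.49 CPM on day 2 and 2.1, 1.45 and 2.11 CPM with sertraline, without a call. Of the 5 nuclear and feedback genes, 4 were thus higher in TDECs than in MBMECs and 1 was lower. Of all tested genes, 28.1% were higher and 20.8% lower, and counts over 5 genes are not read as a trait of their role. The cells of the 2 groups differ in origin and medium, and no oxygen level is given for MBMECs. MBMEC libraries also lack a title prefix that the TDEC libraries have. These differences cannot be told apart here.

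**Figure D4:**
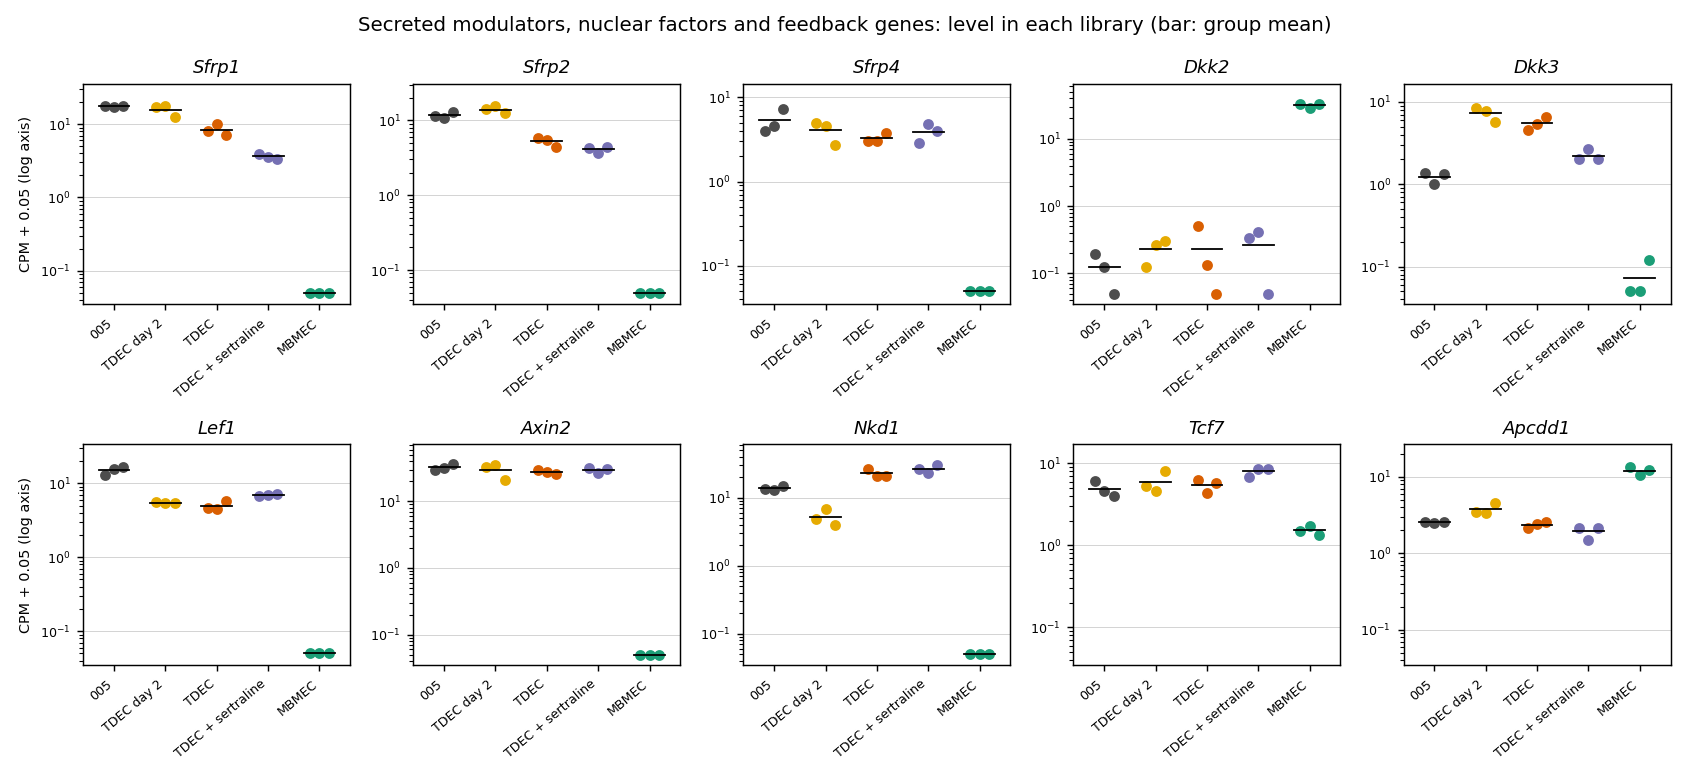
Level of 5 secreted modulators (top row) and 5 nuclear or feedback genes (bottom row) as CPM + 0.05 on a log axis in each library (points) by group, with the group mean as a bar. Sfrp1 is lowest among glioma-derived cells with sertraline, Dkk3 is highest on day 2, Nkd1 dips on day 2, and Axin2, Lef1, Nkd1 and the 3 Sfrp genes are at 0 in MBMECs, where Dkk2 and Apcdd1 are highest.

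**Figure D5:**
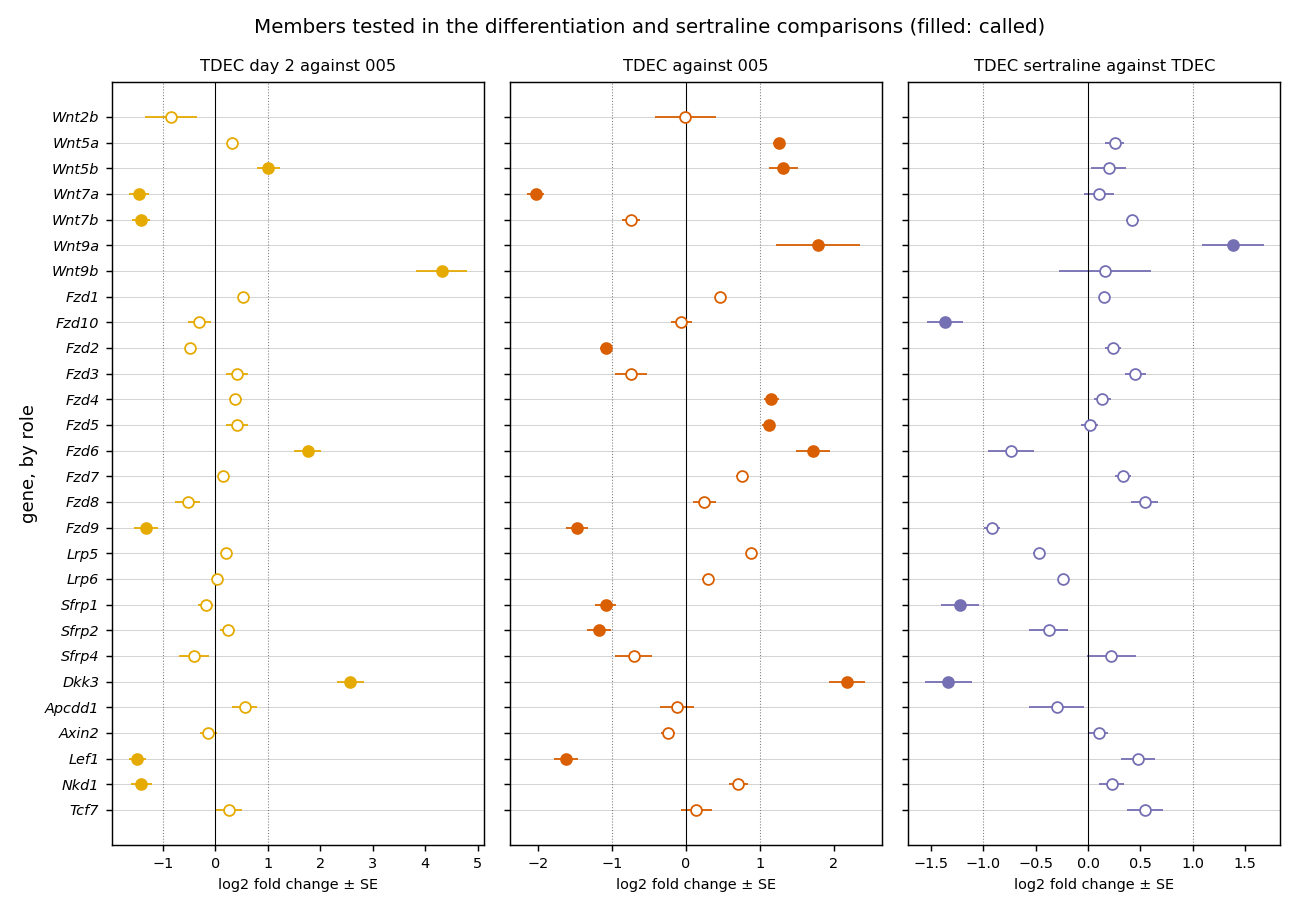
Log2 fold change ± SE (horizontal axis) of the tested members, by role, for TDEC day 2 against 005, TDEC against 005 and TDEC sertraline against TDEC, with 3 libraries per group; filled points were called and dotted lines mark a log2 fold change of 1 in either direction. Wnt9b on day 2 has the largest value at 4.32, and with sertraline the called genes are Wnt9a, Fzd10, Sfrp1 and Dkk3.

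Other genes of the pathway were counted from lists chosen by role. Of all tested genes, 5.35% were called higher and 4.48% lower on day 2, and 13.1% and 10.4% over the whole course, and with lists this short the counts are not read as traits of a list. Of 5 genes of ligand processing and secretion, 1 of 4 tested rose on day 2 and 2 of 4 over the whole course. These were Gpc4, a glypican that holds Wnts at the cell surface, with 19.1 ± 1.25 CPM in 005 and 126 ± 5.26 CPM in TDECs (log2 fold change 2.71, SE 0.08, adjusted p = 3.4e-11), and Notum, a secreted enzyme that removes the lipid of Wnts (1.37, SE 0.34, adjusted p = 0.0035). Gpc4 had no counts in MBMECs (TDECs at least 1908-fold higher). Among 9 other secreted inhibitors, Wif1, which binds Wnts, rose from 0.266 ± 0.112 to 4.53 ± 0.378 CPM (4.03, SE 0.33, adjusted p = 4.4e-07), as did Igfbp4, a binding protein of insulin-like growth factors (1.67, SE 0.08, adjusted p = 1.9e-09), while Draxin fell (−2.88, SE 0.43, adjusted p = 8.5e-05), the only calls among 4 tested. The same 3 genes were the calls on day 2, where that of Draxin (−1.35, SE 0.41, adjusted p = 0.023) ended without replicate 3 of 005 (adjusted p = 0.11) and, with the replicate number as a block, gave an adjusted p = 0.052.

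Of 5 R-spondin receptors and ligases, the stem cell receptor Lgr5 fell from 8.45 ± 0.567 to 2.29 ± 0.152 CPM (log2 fold change −1.90, SE 0.18, adjusted p = 1.4e-06), 1 of 3 tested over the whole course. Lgr6, of the same list, was not tested against 005 and went the other way. Summed over the libraries of a group, it had 0 counts in 005, 33 on day 2 and 52 in TDECs. This put TDECs at least 20.5-fold above 005. Against MBMECs it was called lower in TDECs (−2.54, SE 0.23, adjusted p = 3.5e-11). In the list of norrin and brain endothelial Wnt receptor genes, the tetraspanin Tspan12 went from 268 ± 17.1 CPM in 005 to 192 ± 13.2 CPM on day 2 and 85.8 ± 1.84 CPM in TDECs. Its fall was called against 005 (−1.66, SE 0.06, adjusted p = 4.5e-10) and against day 2 (−1.18, SE 0.07, adjusted p = 5.6e-08). Ndp, which encodes norrin, was lower in TDECs than on day 2 (−1.01, SE 0.14, adjusted p = 9.2e-05), a call at the fold threshold that ended without replicate 2 of TDEC (−0.98) or replicate 3 of TDEC (−0.97). Adgra2 (Gpr124), a co-activator for Wnt7 ligands, rose on day 2 from 37.7 ± 4.39 to 93.8 ± 14.2 CPM (1.30, SE 0.12, adjusted p = 1.7e-05). It was at 61.9 ± 4.13 CPM in TDECs, without a call against 005 (0.70, SE 0.09, adjusted p = 3.5e-05) or day 2 (−0.61, SE 0.10, adjusted p = 0.00033), and at 464 ± 6.16 CPM in MBMECs. Its partner Reck was at 4.73 ± 0.567 CPM in 005, 5.90 ± 0.665 CPM in TDECs and 10.5 ± 0.595 CPM in MBMECs and was called in no comparison.

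Inside the cell, of 15 cytoplasmic genes, such as the Dishevelled, Axin and Gsk3 genes, 0 were called on day 2, where 5.35% and 4.48% of all tested genes were called higher and lower, and 1 in TDECs, Amer1, which binds Apc (log2 fold change −1.09, SE 0.09, adjusted p = 2.9e-07). Of 12 nuclear partners, 0 were called against 005 at either time and 1 between day 2 and TDECs, Cby1, an inhibitor of beta-catenin (−1.07, SE 0.09, adjusted p = 1.6e-06). Among 14 further common targets, Bambi, a decoy receptor of TGF-beta, rose on day 2 from 2.87 ± 0.182 to 16.8 ± 1.44 CPM (2.52, SE 0.16, adjusted p = 9.5e-07), while Myc (−1.27, SE 0.08, adjusted p = 1.2e-06) and Nkd2 (−1.33, SE 0.23, adjusted p = 0.00085) fell, 3 calls among 10 tested. Over the whole course Bambi and Notum were higher and Lgr5 and Nkd2 lower, among 12 tested. With sertraline 0 of 12 tested targets were called by edgeR, as were 0 of 15 cytoplasmic and 0 of 12 nuclear genes, in a comparison where 1.82% of all tested genes were called higher and 3.26% lower, so that lists of this size would hold few calls or none. DESeq2 also made 0 calls wherever edgeR made 0 in these lists, under the same thresholds. Many of the genes had an unadjusted p under 0.05 by edgeR and changes below the thresholds: 10 of 15 cytoplasmic genes on day 2, 4 of 12 nuclear genes on day 2 and 9 in TDECs, and with sertraline 5 of the targets, 8 cytoplasmic and 5 nuclear genes. The share of all tested genes at an unadjusted p under 0.05 was not counted, so these numbers are not read as traits of the lists.

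The sertraline comparison has a limit in its samples. By the labels, treated cells were harvested 24 h after sertraline was given on day 5 and may be older than the untreated ones. The treated libraries also lack a title prefix that 005, day 2 and untreated TDEC libraries have in common, and MBMEC libraries lack it too. In the sertraline comparison, age or series and the drug cannot be told apart. The study calls the replicates of this experiment biological. For the other groups nothing says whether replicates were separate cultures, and p-values then measure only the spread between these libraries, which may be technical.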

How the data were processed

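Poly(A) RNA of 15 libraries was sequenced with a strand-specific kit, and the authors deposited raw counts of reads per gene, as whole numbers without scaling. According to the submitters' notes on processing, build mm10 was used with HISAT2 2.1.0 and featureCounts 1.6.3, after bcl2fastq 2.19 and Trimmomatic 0.38. The annotation release, the use of strand and the treatment of reads with several alignments are not given in the sources used here, so close paralogs and overlapping genes may share counts.

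Each of the 5 comparisons used its 6 libraries in edgeR 4.0.16 (R 4.3.3): TMM scaling, filterByExpr with a minimum count of 10, and the two-sided quasi-likelihood test with Benjamini-Hochberg adjustment over all tested genes. The thresholds, an adjusted p under 0.05 and a fold change of 2, are those of the study, which names no test. The SE is the log2 fold change divided by the square root of the F statistic. DESeq2 1.42.0, other scalings and filters, the replicate block and leaving out libraries were tried as alternatives. Levels are CPM scaled by TMM over all 15 libraries, and per kb of exon length from GENCODE M21. Where a group had no counts, folds are bounds that set it at 3 counts summed over its libraries, and with 1 to 3 counts a ratio with its interval at a confidence of 0.95 is given. Depth was 11283680 to 17093061 counts per library, where 3 counts equal 0.176 to 0.266 CPM.

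The members and the gene lists were chosen with earlier results of these data known. Members with a mean of at least 1 CPM in some group and a call are given by library, and other members by group means. From the lists of other pathway genes, counts of calls and up to 4 called genes per direction are given for part of the comparisons. This account is not complete: some lists have calls that are not given, above all against MBMECs and between day 2 and TDECs. The genes of the list of norrin and brain endothelial Wnt receptor genes are all named. Replicate numbers did not pair the libraries: after group means were removed, libraries of equal number correlated at −0.109 to 0.0244.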

Additional observations from a re-analysis of the deposited data

How the results depend on the processing

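No direction of a called member turned under any alternative run. The counts of called members stayed within 1.5 times of the main count, with these exceptions. With a filter of at least 1 count, which tested 46 members, 5 in place of 2 were higher in TDEC than in TDEC day 2, 26 in place of 17 were higher in TDEC than in MBMEC, and 2 in place of 1 were higher with sertraline. Leaving out 1 library at a time gave 1 to 3 members higher in TDEC than in TDEC day 2, the 1 arising without replicate 1 of TDEC day 2 or replicate 1 or 3 of TDEC, when the call of Wnt9a ended. Over all alternatives, and for the 135 tests of members made under the main filter alone, the side of the thresholds was kept 1631 times, 12 calls were lost and 4 gained; members tested under the filter of 1 count alone are not in this tally. In the same tally for other pathway genes, 16 calls were lost and 24 gained. Plain library totals moved the median of all genes by −0.13 for TDEC against 005 and by less than 0.1 elsewhere. A replicate block left the counts of members at 4 higher and 5 lower on day 2, 7 and 6 in TDECs, 2 and 3 between them, 17 and 5 against MBMECs and 1 and 3 with sertraline. The replicate numbers did not pair the libraries. Depth limits the 19 members under 1 CPM, which had too few counts for the main test, so that small changes in them were not detectable; larger ones can show, as in Wnt3 and Rspo2, at least 10.4-fold and 6.90-fold higher in TDECs than in MBMECs, where they had no counts.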

Other observations

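Of 14 tested receptors and planar polarity genes of the branch without beta-catenin, 1 was called higher on day 2 (against 5.35% of all tested genes), Prickle1 (log2 fold change 1.58, SE 0.25, adjusted p = 0.00048), and 1 was higher over the whole course (against 13.1%), Celsr1, a cadherin of planar polarity, which rose from 1.09 ± 0.275 to 5.10 ± 1.23 CPM (2.21, SE 0.28, adjusted p = 2.2e-05; SD, n = 3). Against MBMECs, 7 of the 14 were higher in TDECs and 4 lower, where 28.1% and 20.8% of all tested genes were. In TDECs and in MBMECs, Celsr2 was at 83.1 ± 2.06 and 0.216 ± 0.155 CPM, Ptk7 was at 71.2 ± 1.84 and 4.73 ± 1.24 CPM and Vangl2 was at 60.1 ± 1.56 and 24.8 ± 2.83 CPM. Ror2, a receptor of Wnt5a, had no counts in MBMECs and was at 6.97 ± 0.949 CPM in TDECs, at least 105-fold higher. Lower in TDECs were Daam1 (−1.67), Vangl1 (−2.18), Prickle3 (−3.41) and Prickle1 (−1.33), as log2 fold changes. With sertraline, Prickle3 was called lower (−1.10, SE 0.33, adjusted p = 0.016), at 2.66 ± 0.890 CPM before and 1.23 ± 0.439 CPM after the drug. Its adjusted p was 0.11, 0.064 and 0.064 without replicate 1 of TDEC and without replicates 1 and 3 of the sertraline group, and the call ended each time.

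Among 12 genes of brain endothelium listed for their response to Wnt signals there, 2 of 5 tested rose from 005 to TDECs (13.1% of all tested genes). These were the glucose transporter gene Slc2a1, which low oxygen is also known to induce, from 29.98 ± 2.36 to 239 ± 6.71 CPM (log2 fold change 2.98, SE 0.07, adjusted p = 1.3e-11), and the transferrin receptor gene Tfrc, from 80.9 ± 18.4 to 183 ± 11.1 CPM (1.16, SE 0.13, adjusted p = 6.5e-06; 0.98 without replicate 3 of 005). Against MBMECs 4 of 9 tested were lower in TDECs (20.8% of all tested genes). The tight junction gene Cldn5 and the transcription factor gene Sox17 had no counts in TDECs, which were at least 11508-fold and 2097-fold lower, and the log2 fold change of Sox7 was −8.50. Plvap, a gene of leaky vessels that Wnt signals are known to hold down in barrier endothelium, was also lower (−2.76) and is not a barrier gene of the same kind. Mfsd2a, a lipid transporter gene, was the 1 higher gene, with 26.2 ± 1.63 CPM against 0.0866 ± 0.0751 CPM, and it was already at 25.6 ± 1.81 CPM in 005.

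Other lists were also counted between TDECs and MBMECs, where 28.1% of all tested genes were higher in TDECs and 20.8% lower. Of the further common targets, 7 of 12 tested were higher and 0 lower, among them Tnfrsf19 at 29.9 ± 2.61 against 0.0223 ± 0.0386 CPM, Znrf3 at 44.8 ± 2.84 against 13.6 ± 0.714 CPM and Bambi at 15.2 ± 1.03 against 1.28 ± 0.344 CPM. Of 12 nuclear genes, 3 were higher, with Tle2, a Groucho co-repressor, at 259.7 ± 12.4 against 0.642 ± 0.0658 CPM, and of 15 cytoplasmic genes 4 were higher, with Apc2 at 35.5 ± 2.49 against 0.239 ± 0.124 CPM, shares near that of all genes. By edgeR and by DESeq2, 0 genes of these 3 lists were called lower, while 4 targets, 6 nuclear and 2 cytoplasmic genes were lower at an unadjusted p under 0.05 by edgeR. The share of all tested genes lower at that unadjusted p was not counted. In the list of norrin and brain endothelial Wnt receptor genes, Ndp had no counts in MBMECs and Tspan12 was higher in TDECs (log2 fold change 1.89, SE 0.07, adjusted p = 5.2e-20), while Adgra2 was lower (−2.90, SE 0.05, adjusted p = 2e-27).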
